A study of Homo sapiens with 12 samples.

Results

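The genes described here were listed as changed after capillary constriction in more than 1 breast cell line. Being listed does not mean passing the cutoff for adjusted p-values that the paper states. For the members LAMB4 and CDHR5 the paper prints adjusted p-values above that cutoff in MCF-10A. They are the genes found in at least 2 of the 3 deposited tables (MCF-10A, MDA-MB-231 and LM2), after leaving out mitochondrially encoded genes, histone, ribosomal protein, 7SL and LINC names, names containing -AS, processed pseudogenes and 6 immediate early or feedback genes. The rule gave 43 genes of the 3090 distinct genes in the tables, and of the 64 shared genes the exclusions removed 21. Of the 43, 34 were shared by MCF-10A and MDA-MB-231, 7 by MCF-10A and LM2, 2 by MDA-MB-231 and LM2, and 0 were in all 3 tables. The members were chosen by the authors' comparison of the same 12 libraries, so every difference between constriction and control given below is a description without a test.

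Cells were pushed through microfluidic channels of 5 µm width, 5 µm height and 150 µm length at 7 to 33 cmH2O, a model of a capillary bed, and RNA was sequenced from cells collected upon transit and from control cells that had not transited. Of the 3 lines, MCF-10A comes from breast epithelium without malignancy and MDA-MB-231 from a breast cancer that had spread, and LM2 was derived from MDA-MB-231 and colonises the lung. Each line had 2 constriction and 2 control libraries, 2 biological replicates per condition, with 29978695 to 53584754 reads per library. These totals, here and below, were calculated from the deposited counts, FPKM and gene lengths. They are the reads to which FPKM was scaled and may differ from the reads sequenced. Cell lines in place of tumours and control cells that did not pass a device limit the model, and the effects of device passage and of constriction cannot be told apart. The paper reports far less total RNA from constriction than from control cells in MDA-MB-231 and LM2, in each replicate. In MCF-10A the constriction amount was lower in replicate 1 and higher in replicate 2. The part of RNA amount in the differences between groups and lines was not tested. The tables hold part of the genes, and of the 11 epithelial markers checked only KRT16 and KRT19 were listed, both in MCF-10A. Both were lower after transit, as were 94.5% of all genes in that table, and KRT19 had 5 and 21 reads in controls. The other epithelial markers and the mesenchymal, proliferation and immune or blood cell markers were listed in no table. The identity of the lines was therefore not checked with them. In 1 LM2 constriction library the title gives replicate 2 and the description replicate 1, and the title was followed.

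As background, genes annotated as antisense are as a rule transcribed from the strand opposite to another gene, often a coding one, and many are short, weakly transcribed and little studied. Laminins and matrilins are proteins of the extracellular matrix. Zinc finger proteins of the C2H2 type bind DNA, and small nucleolar RNAs of the box C/D type guide the methylation of ribosomal RNA.

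Of the 43 members, 27 moved in opposite directions in the lines that shared them and 16 in the same direction. Opposite directions were found in 23 of the 34 members shared by MCF-10A and MDA-MB-231, beside 28 of all 48 genes these tables share. For MCF-10A with LM2 it was 4 of 7 members beside 5 of 12 shared genes, and for MDA-MB-231 with LM2 0 of 2 beside 0 of 12. In MCF-10A, 38 of 41 members were lower after transit, and 94.5% of all genes in that table were lower. In MDA-MB-231, 10 of 36 members were lower, beside 33.3% of the table, and in LM2 3 of 9, beside 46.4%. As wholes, the MCF-10A table thus went mostly lower and the MDA-MB-231 table mostly higher. The shared genes include the members, so their counts are no separate comparison. Nothing particular to the members is read from the count of opposite directions. The 34 members shared by MCF-10A and MDA-MB-231 were 1.51% of the 2256 MCF-10A genes and 34 of the 284 MDA-MB-231 genes that pass the same exclusions. The 7 shared by MCF-10A and LM2 were 0.310% and 10.8%.

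The MCF-10A side of this pattern was a loss of all reads. All 38 members that were lower in MCF-10A had 0 reads in both constriction libraries, as did 89.6% of all genes in the MCF-10A table, so nothing particular to the members is read from this. In their MCF-10A controls the same 38 genes had 3 to 257 reads. A count of 0 allows up to 3 reads per library, and against that floor the 38 were at least 2.19-fold to at least 44.7-fold lower, with a median bound of 4.54-fold. Such floors cover counting error only. The limits also depend on single libraries. For HRNR, which gave the 44.7, the log2 difference was -5.64 without control replicate 1 in place of -7.24. Without control replicate 2, RF00019 was left with 3 reads, at the floor, so no bound remained for it. AC018628.1, AC109326.1 and AL022323.4 were then left with 4 reads each. The controls were uneven: in 18 of the 38 the control replicates lay more than 2 times apart in normalised counts, up to 7.86-fold. In 27 of the 38 control replicate 2 was the higher one. Among all 41 members control replicate 1 was the higher in 12, beside 1490 of the 2680 genes of the table. This difference was not tested. The total reads of the MCF-10A libraries were 29978695 and 35494737 after transit and 36123663 and 46436989 in controls, and the part of depth or of RNA quality in the zeros was not tested. Lower transcript levels per cell and fewer cells with the transcript cannot be told apart in such bulk libraries.

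Of these 38 genes, 26 were higher after transit in the second line and 12 were lower. The second lines had few zeros. In MDA-MB-231, 3 of 36 members had 0 reads in both constriction libraries, beside 7.35% of the table, and in LM2 2 of 9, beside 21.6%. No member had 0 reads in both control libraries of any line, beside 0.858% of the MCF-10A table, 16.5% of the MDA-MB-231 table and 13.4% of the LM2 table. Since the members were chosen through these same counts, nothing is read from this.

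The groups did not overlap in 41 of 41 MCF-10A members, 35 of 36 MDA-MB-231 members and 9 of 9 LM2 members. Over the whole tables this held for 96.8%, 94.5% and 82.5% of genes, and since the tables were made from this contrast nothing is read from these shares. The exception in MDA-MB-231 was AC005261.5, whose 35 and 150 reads after transit met 13 and 42 in controls, although constriction was above control within each replicate number.

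**Figure D1:**
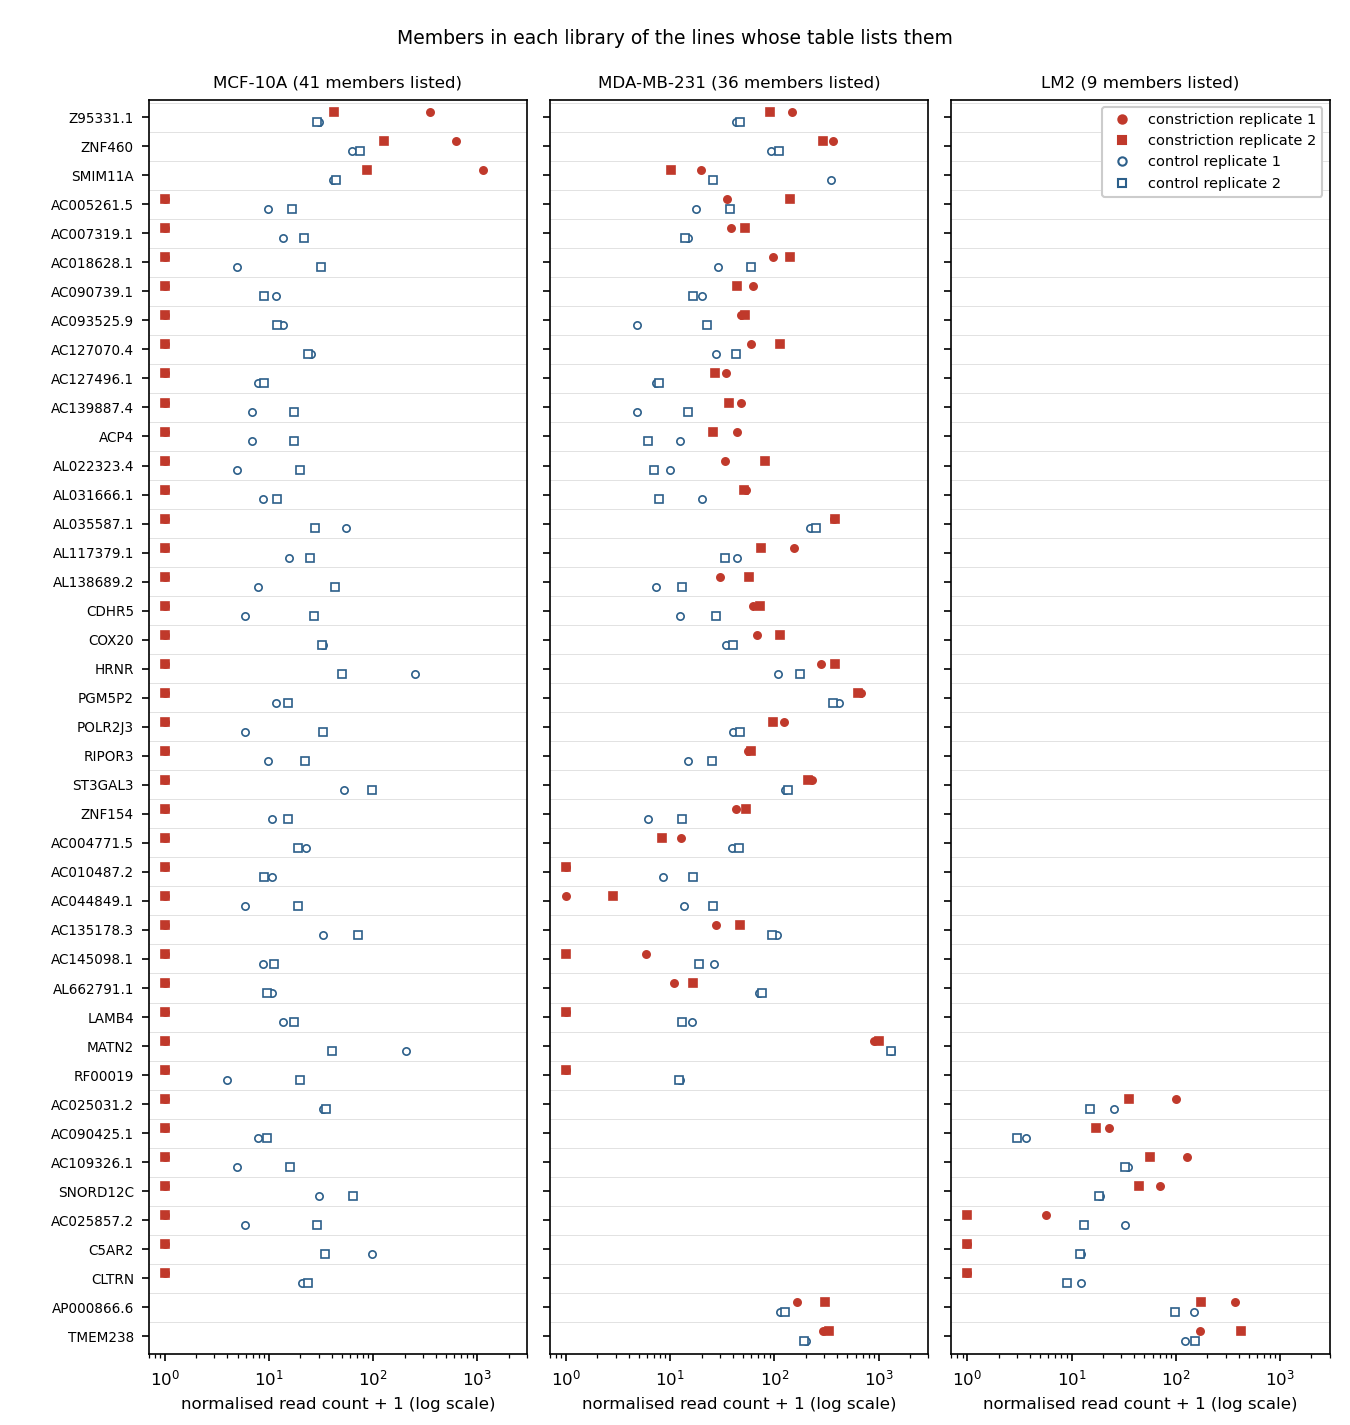
Normalised read count plus 1, on a log axis, of the 43 members in each library of the lines whose table lists them; filled red marks are constriction libraries, open blue marks controls, circles replicate 1 and squares replicate 2. In MCF-10A the filled marks of 38 of 41 members sit at the left edge, at 0 reads, whereas in MDA-MB-231 the filled marks of 26 of 36 members lie to the right of the controls by their mean.

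Among the members that were 0 after transit in MCF-10A and higher in a second line, 8 coding genes were shared with MDA-MB-231. HRNR encodes hornerin, a repeat-rich protein of the cornified envelope of the epidermis. HRNR had 0 and 0 reads in the MCF-10A constriction libraries and 257 and 62 in the controls, at least 44.7-fold lower after transit. In MDA-MB-231, HRNR had 288 and 411 reads after transit against 85 and 204 in controls, 2.33-fold higher in normalised counts (log2 difference 1.22, SE 0.40). Both MDA-MB-231 constriction libraries lay above both controls, while in MCF-10A control replicate 1 carried most of the reads, and without it the log2 difference was -5.64 in place of -7.24. Per length, HRNR had a mean of 0.439 FPKM in MCF-10A controls and 0.316 FPKM in MDA-MB-231 controls, with the tables normalised separately. The MCF-10A mean came from 0.739 and 0.139 FPKM, so the levels of the lines cannot be ranked.

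ST3GAL3, a sialyltransferase that caps glycans with sialic acid, had 0 and 0 reads in MCF-10A after transit and 53 and 123 in controls, at least 22.2-fold lower. In MDA-MB-231 it had 234 and 227 reads after transit against 98 and 155 in controls, 1.70-fold higher (log2 difference 0.76, SE 0.08). The MDA-MB-231 replicates of each group lay close together in normalised counts, and the groups did not overlap in either line. ST3GAL3 spans 7 other annotated genes, of which RF00026 and SHMT1P1 were also listed in MDA-MB-231, with 15 and 2 and with 31 and 1 reads after transit.

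COX20, an assembly factor of cytochrome c oxidase, had 0 and 0 reads in MCF-10A after transit and 33 and 40 in controls, at least 9.51-fold lower. The MDA-MB-231 libraries gave it 68 and 121 reads after transit against 26 and 45 in controls, 2.49-fold higher (log2 difference 1.29, SE 0.38). Constriction replicate 2 was the higher of the pair in MDA-MB-231, and without it the log2 difference was 0.87. COX20 overlaps HNRNPU on the opposite strand, and 67.9% of the 50-base stretches of its transcripts also occur, reversed, in transcripts of other genes. The library protocol names a strand-keeping and a strand-free version without saying which was used, so reads of COX20 and of its overlapping neighbour are not separable here.

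The other 5 coding genes of this kind had fewer reads. In MCF-10A they had 5 to 41 reads per control library and 0 in each constriction library. ZNF154, a C2H2 zinc finger gene, had 43 and 57 reads in MDA-MB-231 after transit and 4 and 14 in controls, 5.53-fold higher. ACP4, an acid phosphatase gene, had 44 and 27 against 9 and 6, 4.10-fold higher. CDHR5, a cadherin-related protein of the brush border, had 63 and 78 against 9 and 31, 3.51-fold higher. In all 3 the constriction libraries were the higher ones, with no overlap, and with 1 library left out the MDA-MB-231 log2 difference ranged from 1.89 to 2.99 for ZNF154, from 1.48 to 2.50 for ACP4 and from 1.29 to 2.45 for CDHR5. RIPOR3 was 2.97-fold higher, from 56 and 63 reads against 11 and 28. POLR2J3, a copy of an RNA polymerase II subunit gene, was 2.56-fold higher, from 125 and 103 reads against 31 and 53. Reads of POLR2J3 are uncertain: 36.9% of the 50-base stretches of its transcripts occur on the same strand in transcripts of other genes, led by POLR2J2. In MCF-10A the control reads of these genes lay mostly in replicate 2, and without it the log2 difference went from -3.61 to -2.78 for ACP4, from -4.04 to -2.56 for CDHR5, from -4.30 to -2.56 for POLR2J3 and from -4.01 to -3.29 for RIPOR3. RIPOR3 had 1.03% of its stretches in other genes on either strand and ACP4 had 0.

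SMIM11A, a small membrane protein gene, was the member that went the other way, higher in MCF-10A and lower in MDA-MB-231. It had 948 and 84 reads in MCF-10A after transit and 41 and 55 in controls, 14.7-fold higher (log2 difference 3.85, SE 1.24). Its MDA-MB-231 counts were 19 and 10 reads after transit against 274 and 29 in controls, 13.4-fold lower (log2 difference -3.65, SE 1.32). In each line 1 library carried most of the difference, constriction replicate 1 in MCF-10A and control replicate 1 in MDA-MB-231. Without those libraries the log2 difference was 1.04 in MCF-10A and -0.80 in MDA-MB-231, with the same signs. SMIM11A shares 93.2% of its 50-base stretches on the same strand with other genes, first SMIM11B, so its reads cannot be assigned to 1 copy with certainty.

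**Figure D2:**
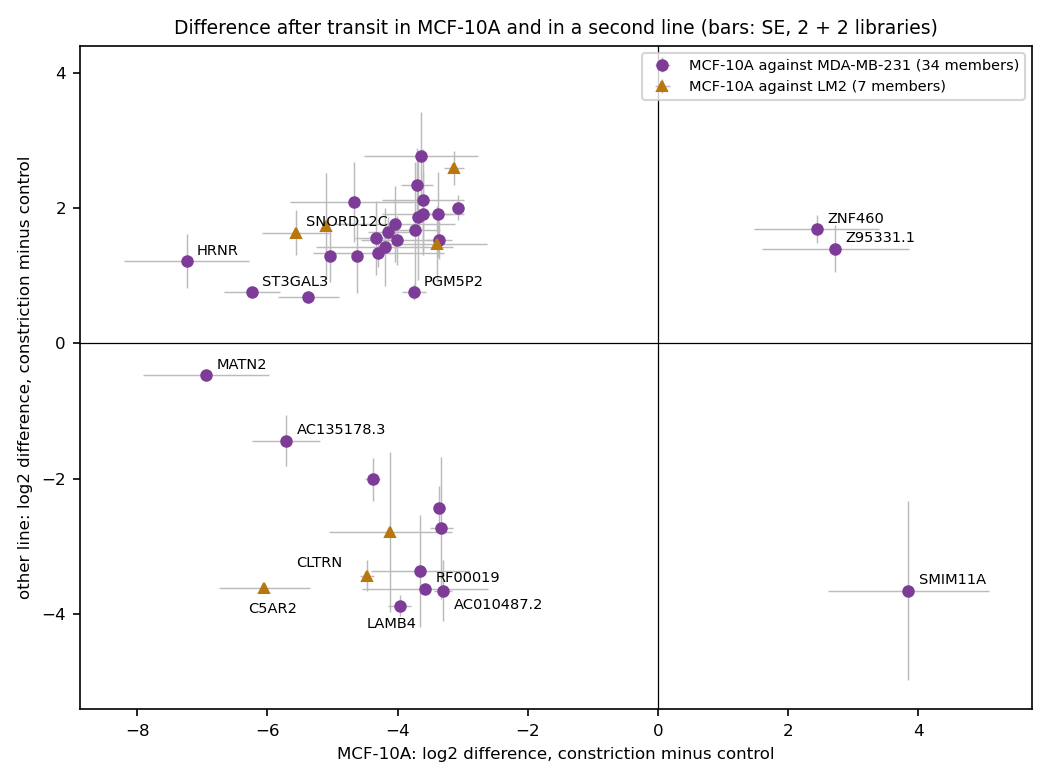
Difference in log2(mean normalised count + 1), constriction minus control, of each member in MCF-10A (horizontal) against the same in MDA-MB-231 (circles, 34 members) or LM2 (triangles, 7 members), with standard errors from 2 + 2 libraries. The upper left part holds 26 members, at 0 reads after transit in MCF-10A and higher in the second line, the lower left holds 12, the upper right 2 and the lower right SMIM11A; for members at 0 reads the horizontal position depends on the added 1.

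Non-coding genes made up 28 of the 43 members, 15 of them annotated as antisense and 5 as TEC, the annotation's term for transcripts that still await experimental proof. Antisense genes were 34.9% of the members and 17.7% of the 2562 listed genes that pass the same exclusions, TEC genes 11.6% and 3.08%, and coding genes 34.9% and 51.5%. These shares are descriptions and were not tested. Of the 15 antisense members, 12 overlapped a gene on the opposite strand, AC090739.1 and AL662791.1 overlapped genes on the same strand and AL035587.1 overlapped none. As for COX20, reads of members that overlap a gene on the opposite strand may not be separable from reads of that gene. The same holds for members within a gene on the same strand, such as AC127070.4 within CHFR and AP000866.6 within MSANTD2. Whether their reads came from the member or from the overlapping gene was not tested. All 5 TEC members moved in opposite directions, and so did 10 of the 15 antisense members and 9 of the 15 coding members.

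**Figure D3:**
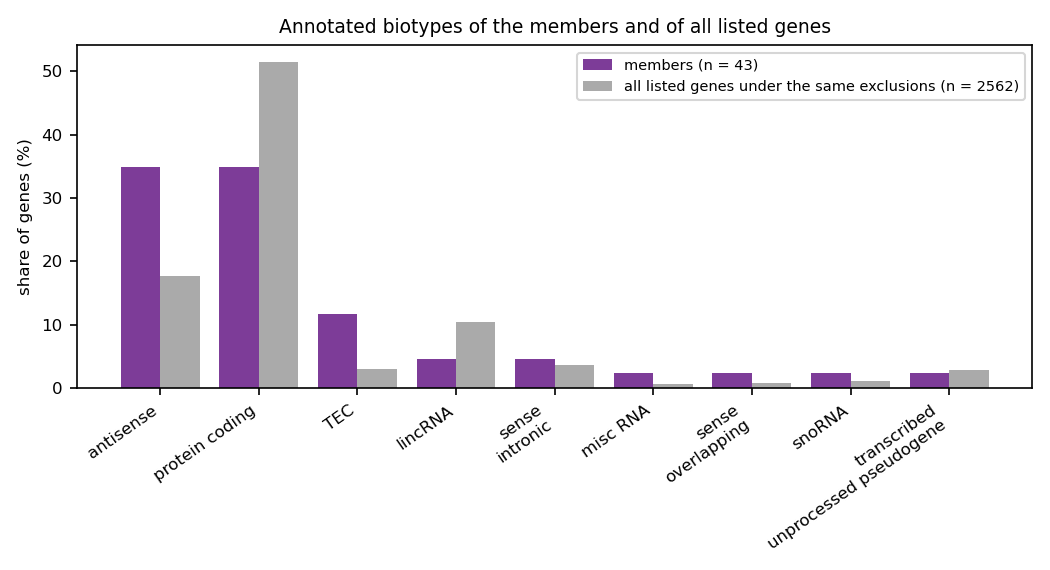
Share in % of each annotated biotype among the 43 members (purple) and among the 2562 listed genes that pass the same exclusions (grey). Antisense and TEC genes take a higher share of the members (34.9% and 11.6%) than of the listed genes (17.7% and 3.08%), and coding genes a lower one (34.9% against 51.5%). The listed genes are mostly those of the MCF-10A table (2256).

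AL035587.1, annotated as antisense although no annotated gene overlaps it, had 0 and 0 reads in MCF-10A after transit and 55 and 34 in controls, at least 12-fold lower. Without control replicate 1 its MCF-10A log2 difference was -4.80 in place of -5.37. In MDA-MB-231 it had 383 and 412 reads after transit against 173 and 288 in controls, 1.62-fold higher (log2 difference 0.69, SE 0.09). It was expressed more in MDA-MB-231 than in MCF-10A controls, at 3.36 and 0.757 FPKM, with the tables normalised separately. AL138689.2, antisense to EFNB2, had 0 and 0 against 7 and 53 reads in MCF-10A, at least 7.25-fold lower. The MDA-MB-231 libraries gave it 30 and 60 against 5 and 14, 4.61-fold higher (log2 difference 2.09, SE 0.59). Its MCF-10A bound rests mostly on control replicate 2, and without that library the log2 difference in MCF-10A was -2.97 in place of -4.66. AC127070.4, a TEC gene within CHFR, had 0 and 0 against 25 and 29 reads in MCF-10A, at least 7.05-fold lower. Its MDA-MB-231 counts were 60 and 122 against 21 and 49, 2.49-fold higher (log2 difference 1.29, SE 0.55), and without constriction replicate 2 the log2 difference was 0.75.

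Over the 22 members that were 0 after transit in MCF-10A and higher in MDA-MB-231, the rise in MDA-MB-231 ranged from 1.62-fold to 7.56-fold with a median of 3.13-fold. The highest was that of AL022323.4, antisense to KIAA1671, with 33 and 87 reads after transit against 7 and 7 in controls, a gene singled out after its values were seen. Without constriction replicate 2 its rise was 4.33-fold, and 4 other members then rose more, so it is not the highest in every setting. The median level of the 22 in controls was 0.179 FPKM in MCF-10A and 0.157 FPKM in MDA-MB-231, and the median after transit in MDA-MB-231 was 0.611 FPKM. These are low levels. PGM5P2, a transcribed pseudogene of the PGM5 family and also named after its values were seen, was the most abundant of them per length in MDA-MB-231, at 7.20 FPKM after transit and 4.21 FPKM in controls, and 33.2% of its 50-base stretches occur on the same strand in other genes.

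Between MCF-10A and LM2, 4 of 7 members were 0 after transit in MCF-10A and higher in LM2, and 0 of these 4 were coding. SNORD12C is a box C/D small nucleolar RNA whose gene lies within ZFAS1. Its whole sequence is short enough to be shown, from the GENCODE transcripts of GRCh38 at chr20:49278940-49279028 on the plus strand, with the box C and box D letters in capitals:
SNORD12C: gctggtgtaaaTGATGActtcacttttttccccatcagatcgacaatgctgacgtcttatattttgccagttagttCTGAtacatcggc
SNORD12C had 0 and 0 reads in MCF-10A after transit and 30 and 80 in controls, at least 13.8-fold lower. In LM2 it had 60 and 45 reads after transit against 20 and 17 in controls, 3.23-fold higher (log2 difference 1.64, SE 0.33). Both LM2 controls were nearly equal in normalised counts and both constriction libraries lay above them, and in MCF-10A the log2 difference was -4.92 without control replicate 2 in place of -5.56. With 14.3 FPKM in MCF-10A controls and 13.9 FPKM in LM2 after transit it had the highest level per length among the members, on a gene of 89 bases. RNA was purified on poly-T beads, and box C/D RNAs end without a poly(A) tail, so how its reads arose, from the small RNA or from longer host transcripts, was not tested.

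AC025031.2, antisense to SLC38A2, had 0 and 0 reads in MCF-10A after transit and 33 and 43 in controls, at least 9.86-fold lower. In LM2 it had 86 and 36 reads after transit against 28 and 14 in controls, 3.45-fold higher (log2 difference 1.73, SE 0.79). In LM2 replicate 1 was the higher in each group, constriction was above control within each replicate number, and without constriction replicate 1 the log2 difference was 0.79. The remaining members of this kind, AC109326.1 and AC090425.1, had 4 to 19 reads per control library in MCF-10A.

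Of the 12 members that were lower in both of their lines, 4 were coding genes. LAMB4, a laminin beta chain, had 0 and 0 reads in MCF-10A after transit and 13 and 21 in controls, at least 4.36-fold lower. In MDA-MB-231 it again had 0 and 0 reads after transit against 12 and 14 in controls, at least 4.78-fold lower. The 4 control libraries were alike in both lines and the 4 constriction libraries were all at 0. LAMB4 was the single laminin listed, of 12 laminin chains looked up, and its mean control levels of 0.0579 FPKM in MCF-10A and 0.0416 FPKM in MDA-MB-231 were very low.

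MATN2, a matrilin, had 0 and 0 reads in MCF-10A after transit and 209 and 50 in controls, at least 36.3-fold lower. In MDA-MB-231 it had 915 and 1078 reads after transit against 1029 and 1533 in controls, 1.39-fold lower in normalised counts (log2 difference -0.47, SE 0.08). The raw reads of MDA-MB-231 control replicate 1 and constriction replicate 2 overlap, and after division by the size factors both controls lie above both constriction libraries. In MCF-10A the log2 difference was -6.94, and -5.34 without control replicate 1. MATN2 was the most abundant coding member that fell in MDA-MB-231, at 4.06 FPKM in controls and 2.96 FPKM after transit, against 0.495 FPKM in MCF-10A controls. RPL30 overlaps it on the opposite strand and was listed in MDA-MB-231 in the other direction, with 13429 and 10706 reads after transit against 7504 and 8457 in controls. Of the other matrilins, MATN1 was listed, in MCF-10A, with 0 and 0 reads after transit against 6 and 11 in controls.

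C5AR2, a receptor of the complement fragment C5a, had 0 and 0 reads in MCF-10A after transit and 99 and 42 in controls, at least 19.4-fold lower. In LM2 it had 0 and 0 reads after transit against 13 and 11 in controls, at least 3.56-fold lower. The LM2 controls were close together, and in MCF-10A control replicate 1 was the higher one, without which the log2 difference was -5.09 in place of -6.05. The related receptors C3AR1 and C5AR1 and the genes C3 and C5 were in no table.

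CLTRN encodes collectrin, a membrane protein that helps amino acid transporters reach the cell surface. It had 0 and 0 reads in MCF-10A after transit and 20 and 29 in controls, at least 6.32-fold lower. In LM2 it had 0 and 0 reads after transit against 13 and 8 in controls, at least 3.08-fold lower. All 4 constriction libraries were at 0 and all 4 controls were above the floor. Of its 50-base stretches, 20.7% occur on the same strand in AC097625.1, which overlaps it.

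With LAMB4, C5AR2 and CLTRN, the non-coding genes AC010487.2 and RF00019 complete the 5 members at 0 reads in all 4 constriction libraries of their lines. These non-coding genes are named after their values were seen. AC010487.2 had 10 and 10 reads in MCF-10A controls and 6 and 18 in MDA-MB-231 controls. RF00019 carries the name of the Rfam family of Y RNAs, small RNAs made by RNA polymerase III. It had 3 and 24 reads in MCF-10A controls and 9 and 13 in MDA-MB-231 controls. The single control count of 3 equals the floor, so the MCF-10A difference of RF00019 rests on control replicate 2. It lies at chr20:5113993-5114083 on the minus strand and is shown with capitals for the bases covered by 25-base stretches that also occur, on either strand, in GENCODE transcripts of other genes:
RF00019: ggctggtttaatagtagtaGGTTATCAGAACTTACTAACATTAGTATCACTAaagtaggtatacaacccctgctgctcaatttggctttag
The 33 marked bases share stretches with transcripts of 2 other genes.

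Among the other members that were lower in both lines, AC135178.3, antisense to RPL26, had 0 and 0 reads in MCF-10A after transit and 33 and 89 in controls, at least 15.3-fold lower. The MDA-MB-231 libraries gave it 27 and 49 reads after transit against 82 and 108 in controls, 2.75-fold lower (log2 difference -1.43, SE 0.38). The groups did not overlap in either line, and without control replicate 2 the MCF-10A log2 difference was -5.06 in place of -5.71. RPL26 itself was listed in MDA-MB-231 in the same direction, with 976 and 715 reads after transit against 1621 and 1671 in controls, and 15.8% of the 50-base stretches of AC135178.3 occur, reversed, in transcripts of other genes. The antisense members AC004771.5, AC044849.1, AC145098.1 and AL662791.1 were lower in MDA-MB-231 as well, and AC025857.2, within CTSB, was lower in LM2 as well. Their constriction libraries had 0 to 17 reads and their controls 10 to 88 in these second lines.

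The 4 members that were higher in both of their lines included 2 coding genes. ZNF460, a C2H2 zinc finger gene, had 515 and 121 reads in MCF-10A after transit and 63 and 94 in controls, 5.49-fold higher (log2 difference 2.44, SE 0.96). Its MDA-MB-231 counts were 375 and 317 reads after transit against 73 and 128 in controls, 3.25-fold higher (log2 difference 1.69, SE 0.20). Constriction replicate 1 stood far above replicate 2 in MCF-10A, and without it the log2 difference was 0.87, whereas the MDA-MB-231 replicates were close. Of the genes with a ZNF name and a number, 25 of the 26 listed in MCF-10A were lower, beside 94.5% of that table, and 4 of the 5 listed in MDA-MB-231 were higher, beside 66.7%.

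ZNF460 and AC005261.5 share 487 bases on opposite strands of chromosome 19. In MCF-10A the 2 moved apart, since AC005261.5 had 0 and 0 reads after transit against 9 and 20 in controls while ZNF460 was higher. In MDA-MB-231 both were higher after transit, AC005261.5 by 3.28-fold with overlapping groups, and by 1.30-fold without constriction replicate 2. Of the 43 members, 36 overlapped another annotated gene, 28 on the opposite strand, and 8 overlapped a gene that was itself in a table of the member.

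Z95331.1, a sense-overlapping gene that shares 8333 of its 23112 bases with ATXN10, had 288 and 40 reads in MCF-10A after transit and 30 and 35 in controls, 6.82-fold higher (log2 difference 2.73, SE 1.13). In MDA-MB-231 it had 149 and 96 reads after transit against 33 and 53 in controls, 2.68-fold higher (log2 difference 1.40, SE 0.35). Again MCF-10A constriction replicate 1 stood apart, and without it the log2 difference was 0.52. The 3 members that were higher in MCF-10A, SMIM11A, ZNF460 and Z95331.1, thus all had their highest count in that library.

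TMEM238, a transmembrane protein gene, was shared by MDA-MB-231 and LM2. It had 297 and 360 reads in MDA-MB-231 after transit and 156 and 221 in controls, 1.61-fold higher (log2 difference 0.68, SE 0.10). In LM2 it had 147 and 446 reads after transit against 139 and 151 in controls, 2.17-fold higher (log2 difference 1.11, SE 0.64). The MDA-MB-231 groups were well apart, whereas in LM2 constriction replicate 2 carried the difference, which was 0.31 without it. AP000866.6, within MSANTD2, had 167 and 329 reads in MDA-MB-231 after transit and 89 and 146 in controls, 1.96-fold higher (log2 difference 0.96, SE 0.44). In LM2 it had 316 and 184 reads after transit against 167 and 96 in controls, 2.22-fold higher (log2 difference 1.14, SE 0.58). The groups lay closer than for TMEM238 in MDA-MB-231, and without the higher constriction library the log2 difference was 0.45 in MDA-MB-231 and 0.52 in LM2.

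Promoter sequences, from RefSeq on GRCh38.p14 and running from 250 bases before to 50 after the start, were found for 12 of the 15 coding members and not for MATN2, POLR2J3 and CDHR5. Those of 5 of the 6 coding members that moved the same way in both lines are shown, MATN2 being the missing one. Capitals mark matches, on either strand, to 5 motifs (TATA box, TGANTCA, CRE, NF-κB type and CArG box), and matches that overlap each other run together. ZNF460 is at chr19:57279732-57280031 (plus strand), TMEM238 at chr19:55384243-55384542 (minus), C5AR2 at chr19:47331925-47332224 (plus), LAMB4 at chr7:108130312-108130611 (minus) and CLTRN at chrX:15664756-15665055 (minus). The RefSeq start lies 10207 bases from that of the gene annotation for CLTRN, 306 bases for TMEM238 and 69 bases for ZNF460. The annotated starts of CLTRN, TMEM238 and ZNF460 lie outside the windows shown. Among the promoters not shown, the distance is 54735 bases for RIPOR3 and 1712 for ST3GAL3.
ZNF460: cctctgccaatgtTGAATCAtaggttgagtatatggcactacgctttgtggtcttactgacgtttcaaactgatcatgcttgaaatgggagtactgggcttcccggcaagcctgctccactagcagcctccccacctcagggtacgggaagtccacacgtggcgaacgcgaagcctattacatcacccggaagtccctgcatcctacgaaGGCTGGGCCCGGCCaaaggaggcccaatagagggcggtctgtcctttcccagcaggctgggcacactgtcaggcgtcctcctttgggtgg
TMEM238: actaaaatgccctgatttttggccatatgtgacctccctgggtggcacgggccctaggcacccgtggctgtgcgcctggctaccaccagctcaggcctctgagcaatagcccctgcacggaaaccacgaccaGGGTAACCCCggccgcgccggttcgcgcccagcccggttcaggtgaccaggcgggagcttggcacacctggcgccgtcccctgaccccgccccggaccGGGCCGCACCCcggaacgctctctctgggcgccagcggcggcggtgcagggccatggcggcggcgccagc
C5AR2: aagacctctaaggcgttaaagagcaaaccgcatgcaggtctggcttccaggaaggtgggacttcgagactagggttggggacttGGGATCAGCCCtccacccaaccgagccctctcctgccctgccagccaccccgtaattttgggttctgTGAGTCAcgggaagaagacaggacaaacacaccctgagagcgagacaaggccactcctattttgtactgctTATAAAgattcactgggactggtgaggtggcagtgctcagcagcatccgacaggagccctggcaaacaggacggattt
LAMB4: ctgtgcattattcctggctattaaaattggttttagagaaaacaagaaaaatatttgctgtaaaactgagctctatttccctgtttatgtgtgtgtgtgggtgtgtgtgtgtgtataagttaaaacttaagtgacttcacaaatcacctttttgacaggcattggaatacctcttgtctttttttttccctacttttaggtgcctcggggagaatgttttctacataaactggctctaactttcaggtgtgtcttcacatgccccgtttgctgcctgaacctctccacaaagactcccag
CLTRN: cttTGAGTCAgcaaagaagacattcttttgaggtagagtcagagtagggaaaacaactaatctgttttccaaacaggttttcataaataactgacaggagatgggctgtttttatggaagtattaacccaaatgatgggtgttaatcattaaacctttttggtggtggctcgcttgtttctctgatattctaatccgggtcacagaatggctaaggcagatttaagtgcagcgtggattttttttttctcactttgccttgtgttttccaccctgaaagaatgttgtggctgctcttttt
The pattern TGANTCA, which is looser than the AP-1 site, occurred in 3 of the 12 promoters and in 7.71% of all 35116 promoters of the table. The match reads TGAGTCA, an AP-1 site, in C5AR2 and CLTRN, and TGAATCA, which is not one, in ZNF460. The TATA box occurred in 3 of 12 (HRNR, C5AR2 and RIPOR3) and in 11.5% of all, the NF-κB type in 6 of 12 and in 58.7% of all. The CRE and the CArG box occurred in 0 of 12, and in 1.85% and 1.29% of all. A match is a run of letters in this window and was not tested as a site.

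The zero counts were compared with the depth of each library. In the MCF-10A constriction libraries 38 of 41 members were at 0 reads in each replicate, beside 92.9% and 92.5% of the 2680 listed genes, and in the MCF-10A controls 0 members were, beside 1.08% and 1.19%. In MDA-MB-231, 4 of 36 members were at 0 in each constriction library, beside 8.66% and 9.97% of the listed genes, and in LM2 2 and 3 of 9, beside 21.6% and 34.0%. The MCF-10A constriction libraries held 29978695 and 35494737 reads, fewest of the 12. MCF-10A control replicate 1 held 36123663 reads, with 1.08% of the listed genes at 0. The part of depth in the zeros was not tested.

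**Figure D4:**
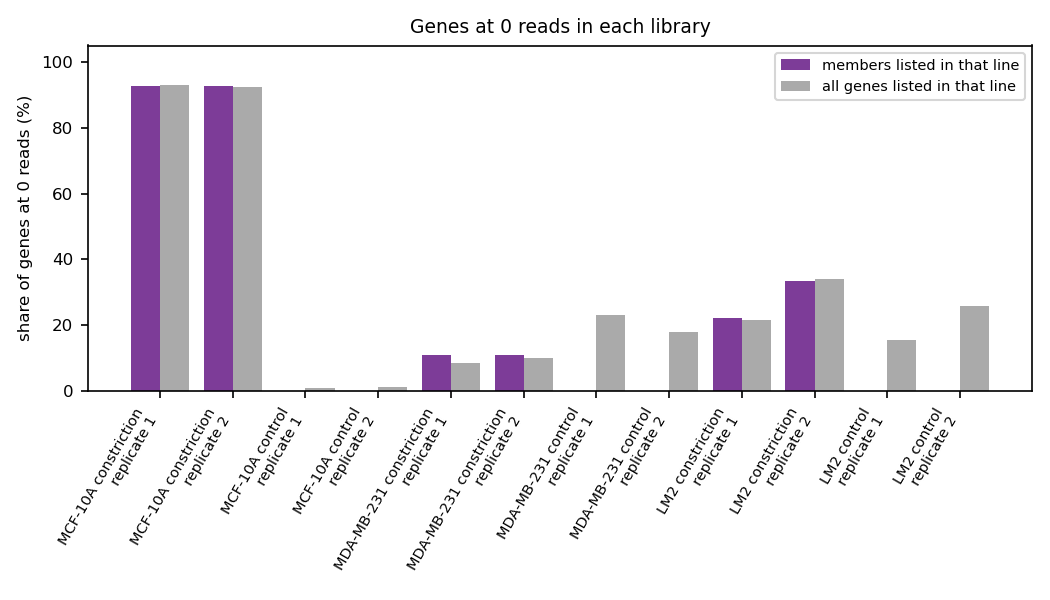
Share in % of the listed members (purple) and of all listed genes (grey) at 0 reads in each of the 12 libraries. The bars of both MCF-10A constriction libraries stand above 90%, for members and table alike, and in the control libraries 0 members were at 0 reads.

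As a list, the members had a median log2 difference of -3.97 in MCF-10A, beside -4.05 for all genes of the table. The MDA-MB-231 median was 1.31, beside 1.08, and the LM2 median 1.14, beside 1.21. With genes of at most 3 reads in each library of a group set at that floor, the MCF-10A median was -2.12 (all genes: -2.26), that of MDA-MB-231 1.34 (all genes: 1.08) and that of LM2 1.15 (all genes: 1.21). For the other genes that pass the same exclusions the medians were -4.10, 0.83 and -1.24 in the same order of lines. The whole tables include the members and the excluded genes, and in LM2 genes of both lists went both ways, so nothing is read from these medians. Their median gene length was 1809 bases (MCF-10A), 2042 bases (MDA-MB-231) and 1000 bases (LM2), against 2607, 2943.5 and 1627 for the other genes that pass the same exclusions. Chromosomes 19, 17 and 20 held 7, 5 and 5 members, 16.3%, 11.6% and 11.6% of the 43, beside 7.96%, 7.96% and 2.54% of the listed genes, and these shares were not tested. Here too the listed genes were mostly those of the MCF-10A table.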

How the data were processed

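The authors filtered reads with fastp, aligned them to GRCh38 with HISAT2 2.0.5 and counted reads per gene with featureCounts 1.5.0-p3, which gave the deposited counts. The deposited normalised counts (a signal) are counts that the authors divided by a DESeq2 1.20.0 size factor per library, within each line. The deposited FPKM values were scaled by the authors to gene length and total reads. Apart from the remark on the cutoff, fold changes, p-values and GO lists of the authors' own comparison were not used, and 0 columns of per-sample values were left aside. Differences are of log2(mean normalised count + 1), with SE from the spread of 2 libraries per group (delta method). Named were members in 3 tables, coding members and members whose normalised counts averaged 10 or more in every table listing them, the last with each value. Alternatives were FPKM, means of logs, pseudocounts 0.5 and 10, a minimum of 10, no exclusions, scaling by total reads and leaving out each library. Members and lists were chosen with earlier results of these data known. Overlaps and transcripts came from GENCODE v29. The arithmetic was tested on simulated data. Python 3.11.15, pandas 2.3.3, NumPy 2.4.6 and matplotlib 3.10.9 were used. Sequence shared with other genes is not reported here for 1 short non-coding member, and its reads are given only within ranges.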

Additional observations from a re-analysis of the deposited data

Results flagged for a closer look

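Between MCF-10A and MDA-MB-231, 22 of 34 members, beside 26 of all 48 shared genes, moved in opposite directions with every constriction library on one side of the controls in one line and on the other side in the other line. They are AC007319.1, AC018628.1, AC090739.1, AC093525.9, AC127070.4, AC127496.1, AC139887.4, ACP4, AL022323.4, AL031666.1, AL035587.1, AL117379.1, AL138689.2, CDHR5, COX20, HRNR, PGM5P2, POLR2J3, RIPOR3, SMIM11A, ST3GAL3 and ZNF154. Between MCF-10A and LM2 the same held for 4 of 7 members, beside 5 of 12 shared genes: AC025031.2, AC090425.1, AC109326.1 and SNORD12C. The shared genes include the members. For AC090425.1 both LM2 controls were at most at the floor of 3 reads, and the sequence it shares with other genes is not reported here. The difference between the lines was not tested, since the tables that chose the genes came from these contrasts.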

How the results depend on the processing

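Paired by replicate number, a choice made after seeing the data, the libraries were described without a test. Both pairs were lower in 38, 10 and 3 members and in 1 direction in 41, 36 and 9 (MCF-10A, MDA-MB-231, LM2), and 11, 3 and 2 members kept the same direction in the 3 pairs of lines. Over all 2680, 381 and 97 genes, both pairs were lower in 2533, 126 and 42 and higher in 69, 242 and 42. The pairs differed in direction in 78 of all 2680, 13 of 381 and 13 of 97 genes, the largest share being in LM2. Nothing particular to the members is read from the agreement of their pairs. With FPKM or means of logs in place of means of normalised counts, the counts of members lower after transit and in the same direction were the same numbers in each line and pair. A minimum mean normalised count of 10 left 15 members, of which 10, 3 and 0 were lower in MCF-10A, MDA-MB-231 and LM2, 13, 13 and 4 did not overlap, and 4 and 0 had the same direction in MCF-10A with MDA-MB-231 and with LM2; fewer genes were counted. Without exclusions the same direction held for 20 of 48, 7 of 12 and, in MDA-MB-231 with LM2, 12 of 12 shared genes. With at most 3 reads in place of 0, 1 member was at the floor in both LM2 controls and 4 in place of 3 in both MDA-MB-231 constriction libraries. The MCF-10A median log2 difference moved from -3.97 to -4.92 and -1.30 with pseudocounts 0.5 and 10, and to -0.34 on FPKM, and the MDA-MB-231 median to 0.25 on FPKM, where the added number weighs most at low values. With the minimum, which counts fewer genes, the MCF-10A median was -5.09. Leaving out 1 library gave medians from -4.32 to -3.43 in MCF-10A, 0.93 to 1.40 in MDA-MB-231 and 0.75 to 1.58 in LM2. No named gene changed sign in the alternatives run. Depth limits every zero to a bound of 3 reads per library.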
